A study of Drosophila melanogaster with 9 samples.

Results

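The insertion list of the sequenced Drosophila melanogaster genome held 676 sites of non-LTR retrotransposons on the 5 major chromosome arms, 2L, 2R, 3L, 3R and X. They were taken by 2 columns of the list: the caller's order had to be non-LTR, and the site had to lie on one of these arms, so that chromosome 4, the sequences named as heterochromatin, the unplaced sequences and the mitochondrial genome were left out. They made up 27.3% (95% Wilson interval 25.6–29.1, counting error only) of the 2474 sites of all orders on the same arms, beside 883 of LTR retrotransposons, 832 of TIR (terminal inverted repeat) DNA transposons and 83 of Foldback elements. The whole list held 4084 sites. Another 573 of its 1249 non-LTR sites lay off the 5 arms, so 54.1% of non-LTR sites were on the arms, beside 60.6% of sites of all orders.

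Non-LTR retrotransposons, also called LINEs, move through an RNA copy: an element-encoded endonuclease nicks the target DNA and reverse transcription starts at the nick, which often leaves copies shortened at the 5′ end. In the Drosophila ovary many of them are silenced in germ cells by piRNAs, small RNAs loaded into the nuclear protein Piwi, and H3K9 methylation with its reader HP1a is a mark of silenced copies. The families belong to several clades, of which the jockey clade (jockey, F-element, Doc, BS, X-element, Juan and the G elements), the R1 clade, the CR1 clade (Cr1a), the LOA clade (baggins) and the I clade were met here.

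The study asked how Piwi and HP1a depletion in germ cells act on TEs and on neighbouring sequence. The sites came from 1 DNA library, without replicate, of pooled whole females of the double knockdown aged 2 to 4 days. RNA came from ovaries of 0- to 1-day-old females in 8 libraries, 2 for each of 4 sibling genotypes named Ctrl, HP1a-GKD, Piwi-GKD and double-GKD (GKD, germline knockdown), from crosses kept at 18 °C. All groups, Ctrl included, carried the w[1118] X chromosome with UAS-Dcr-2.D over a plain X, and the germline driver GAL4-nos.NGT. In the labels Ctrl had this driver over Cy with TM3 on chromosome 3; HP1a-GKD had the driver over Cy with UAS-HP1a-RNAi; Piwi-GKD had UAS-Piwi-RNAi over the driver with TM3; double-GKD had both RNAi constructs and neither balancer. The siblings therefore did not share 1 chromosome 2 and 1 chromosome 3 with the DNA library in every case, and a site in the list need not be present in every RNA library. Knockdown was confined to cells in which nos drives GAL4, while the libraries were of whole ovaries.

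Both the targeted mRNAs and the naming of the deposited files went against the labels of the single knockdowns: by both, the HP1a-GKD-labelled libraries were those of the Piwi knockdown and the Piwi-GKD-labelled libraries those of the HP1a knockdown. Names below follow the labels, so each single-knockdown value has to be read with this exchange in mind. The mRNA of piwi was at 318 and 276 TPM (the deposited level per transcript length, scaled to 1 total in each library) in Ctrl, 129 and 134 in the HP1a-GKD-labelled libraries, 259 and 229 in the Piwi-GKD-labelled pair, and 158 and 147 in double-GKD. The mRNA of HP1a itself was at 327 and 328 TPM in Ctrl, 342 and 358 in the HP1a-GKD-labelled libraries, 166 and 189 in the Piwi-GKD-labelled pair, and 161 and 172 in double-GKD. Of the 4 germline markers found, all 4 fell in the Piwi-GKD-labelled libraries and in double-GKD, and their summed level was 1241 and 1255 TPM in Ctrl against 246 to 262 in those 4 libraries. All 6 muscle markers (summed level 2595 and 2700 TPM in Ctrl, 8381 to 11361 in those 4 libraries), all 3 fat body markers, all 3 haemocyte markers and 2 of 5 follicle cell markers rose there. In the HP1a-GKD-labelled libraries the germline sum was 1058 and 1072 TPM and the muscle sum 2916 and 3296 TPM. No marker found was at 0 in any library. In bulk ovaries, fewer cells of a type and less RNA per cell cannot be told apart, and the part of this shift in the gene results below was not tested.

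jockey had the most non-LTR sites, 102, followed by Cr1a with 82, F-element with 73 and Doc with 51, and these 4 families held 308 of the 676 sites (45.6%). There were 36 families in all. The 20 families with at least 10 sites held 614 sites, 14 families had a site on all 5 arms, and 5 families had a single site. After the first 4 families came I-element with 36 sites, BS and Rt1b with 32 each, baggins with 28, X-element with 25, and G4, G5A and Rt1a with 19 each. Juan had 16 sites, Ivk 14, BS3 13, Rt1c 12, R1A1-element 11, and Doc3-element, G5 and Porto1 had 10 each. By clade, 426 sites were of the jockey clade, 82 of CR1, 77 of R1, 50 of I and 28 of LOA.

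Families differed in how much of their count lay on the arms. Of the 103 sites of jockey in the whole list, 102 were on the 5 arms, as were 16 of 17 for Juan and 32 of 34 for BS. Of the 227 sites of Cr1a, 82 (36.1%) were on the arms, and of the 45 of Doc3-element, 10 (22.2%). HeT-A and TAHRE, which maintain Drosophila telomeres, had 1 site each on the arms of 14 and 8 in the list, and R2-element, which inserts into the ribosomal RNA genes, had 1 of 10. The HeT-A site was at 3L:25318, the TAHRE site at 2L:16021943 and the R2-element site at X:391160 (release 5 of the genome), with frequencies of 0.415, 0.337 and 0.293, each supported by read pairs from one side only.

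**Figure D1:**
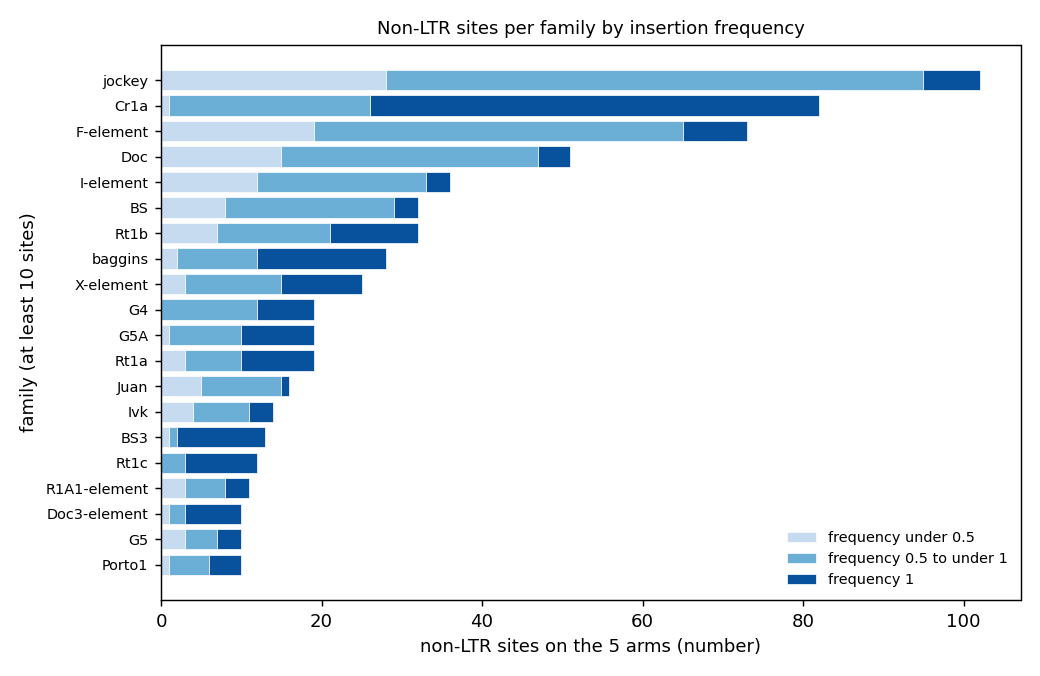
Number of non-LTR sites on the 5 arms for each of the 20 families with at least 10 sites (horizontal bars), divided by insertion frequency under 0.5, from 0.5 to under 1, and equal to 1. jockey has the longest bar with 102 sites, 7 of them at frequency 1, and Cr1a follows with 82, 56 of them at frequency 1.

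Arms 2L, 2R, 3L, 3R and X held 161, 148, 159, 118 and 90 sites. Families did not follow 1 common distribution over the arms. In this order of arms, Cr1a had 23, 21, 32, 2 and 4 sites, baggins 11, 10, 5, 0 and 2, and jockey 15, 15, 26, 24 and 22. I-element, known from the I-R system of hybrid dysgenesis, had 12, 14, 2, 5 and 3, and Juan 1, 2, 2, 5 and 6. Cr1a and baggins were thus few on 3R and X, I-element was concentrated on chromosome 2, and Juan had most of its sites on 3R and X. Sites on the plus strand numbered 331 and sites on the minus strand 342, and 3 had no strand.

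The insertion frequency is the part of the read-pair coverage at a position that carries the element, as the caller estimated it. For non-LTR sites it ran from 0.248 to 1 with a median of 0.7935 (95% interval of the median 0.762–0.835). The median was 0.685 (0.660–0.715) for LTR sites, 0.808 (0.772–0.838) for TIR sites and 0.7545 for all orders. A frequency of 1 was given to 212 non-LTR sites (31.4%, 28–35), 165 LTR sites (18.7%, 16.3–21.4) and 250 TIR sites (30%, 27–33.2). Between 0.4 and 0.6 lay 146 non-LTR sites (21.6%), at 0.5 or more 554 (82.0%), and under 0.25 only 1, an I-element site at 2R:5332253. The non-LTR interval was above that of LTR sites and overlapped that of TIR sites. Among sites with a total coverage of at least 6 the medians were 0.529 for non-LTR, 0.512 for LTR and 0.54 for TIR sites, so most of the gap to LTR sites was not seen there. These intervals cover counting over sites of 1 library, not differences between flies or libraries.

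Within the order, medians of the families with at least 10 sites spanned 0.568 to 1. I-element had the lowest, 0.568 (0.490–0.662) with 3 of 36 sites at frequency 1. The jockey sites had a median of 0.6335 (0.573–0.711) and 7 of 102 at frequency 1, BS 0.652, Doc 0.658 with 4 of 51 at 1, Juan 0.6625 with 1 of 16, G5 0.6735, F-element 0.696 with 8 of 73, Rt1b 0.7115 and Ivk 0.717. R1A1-element (0.774), G4 (0.907), Porto1 (0.941), Rt1a (0.952), X-element (0.954) and G5A (0.997) lay higher. Cr1a, baggins, BS3, Rt1c and Doc3-element had a median of 1, with 56 of 82, 16 of 28, 11 of 13, 9 of 12 and 7 of 10 sites at frequency 1. The interval of the jockey median and that of the Doc median (0.529–0.747) overlapped, as did those of F-element (0.577–0.779) and Juan (0.467–0.753), so these families are not ordered among themselves. The Cr1a interval did not overlap any of these 4.

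The 16 Juan sites show the spread within a family. The lowest was X:1939871 at 0.411 and the highest 3R:19277375 at 1, which was supported from one side only. Read pairs from both sides supported 3R:4043620 at 0.723, X:14328091 at 0.617 and 2R:10402096 at 0.595. Of the 7 jockey sites at frequency 1, all were supported from one side, among them 3R:26585275 with the highest total coverage of the 7, 6.095.

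Coverage set a lower limit to the frequency a site could have. The list gives for each site the coverage by supporting pairs and the total coverage, and the supporting coverage was 2 or more at every one of the 4084 sites. At the median total coverage of non-LTR sites, 4.48, the lowest frequency that could be listed was 0.446 for a site supported from one side. At sites supported from both sides the frequency differed from the coverage ratio by up to 0.138, so this limit is approximate there. The median total coverage was 3.574 for the non-LTR sites at frequency 1, 4.434 for those from 0.5 to under 1, and 5.956 for those under 0.5. Exactly at the limit of 2 lay 87 non-LTR sites (12.9%), of which 21 had frequency 1. Among the 137 non-LTR sites with a total coverage of at least 6 the median frequency was 0.529 and 17 (12.4%) were at 1, whereas among the sites with a coverage from 2 to under 3 the median was 1 and 69 (68.3%) were at 1. The same fall was seen in LTR sites, from 64.0% to 6.05% at frequency 1, and TIR sites, from 64.0% to 13.2%, over these coverage classes. At coverage of at least 6 the medians were 0.493 for jockey (23 sites), 0.519 for Doc (13), 0.5045 for F-element (16) and 0.617 for Juan (7). For Cr1a and baggins the median was 1, but each had only 5 such sites, of their 82 and 28.

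**Figure D2:**
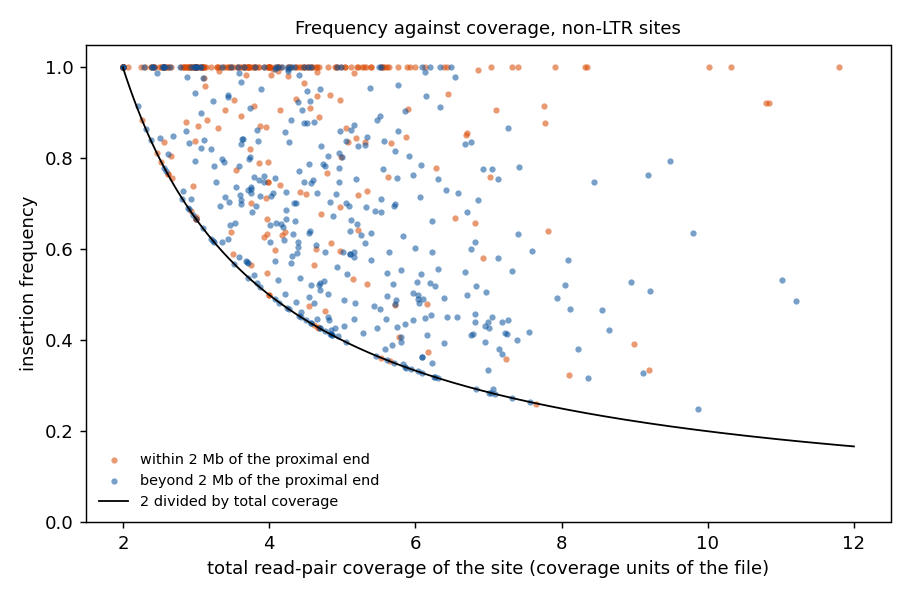
Insertion frequency (vertical axis) of the 676 non-LTR sites against their total coverage in the units of the list (horizontal axis), for sites within 2 Mb (orange) and beyond 2 Mb (blue) of the centromere-proximal end of the arm. The black line is 2 divided by the total coverage, and no point lies below it.

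Distance from the centromere-proximal end of the assembled arm was measured from position 1 on 2R and 3R and back from the most proximal site of any order on 2L, 3L and X. Within 2 Mb of that end lay 287 non-LTR sites (42.5%, 38.8–46.2), between the share of LTR sites (305, 34.5%, 31.5–37.7) and that of TIR sites (490, 58.9%, 55.5–62.2). The next 2 Mb held 67 sites (9.91%). The arms were unlike: 75 of 161 sites on 2L (46.6%), 83 of 148 on 2R (56.1%) and 88 of 159 on 3L (55.3%) were within 2 Mb, against 20 of 118 on 3R (16.9%) and 21 of 90 on X (23.3%). Sites of all orders were also fewer there on 3R (24.3%) and X (31.7%) than on 2L (50.1%), 2R (52.7%) and 3L (53.9%).

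The families fell on either side of this division. Of the Cr1a sites, 73 of 82 (89.0%, 80.4–94.1) were within 2 Mb, as were 26 of 28 for baggins (92.9%, 77.4–98.0), 12 of 13 for BS3, 11 of 12 for Rt1c, and 9 of 10 for both Doc3-element and Porto1. Of the jockey sites 2 of 102 (1.96%, 0.539–6.87) were there, at 3L:22904874 and 3R:483003, and of the I-element sites 2 of 36 (5.56%). BS had 3 of 32 there (9.38%), F-element 11 of 73 (15.1%), Doc 8 of 51 (15.7%) and Juan 3 of 16 (18.8%). The intervals of jockey and F-element (8.63–25) did not overlap, and neither overlapped those of Cr1a and baggins.

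**Figure D3:**
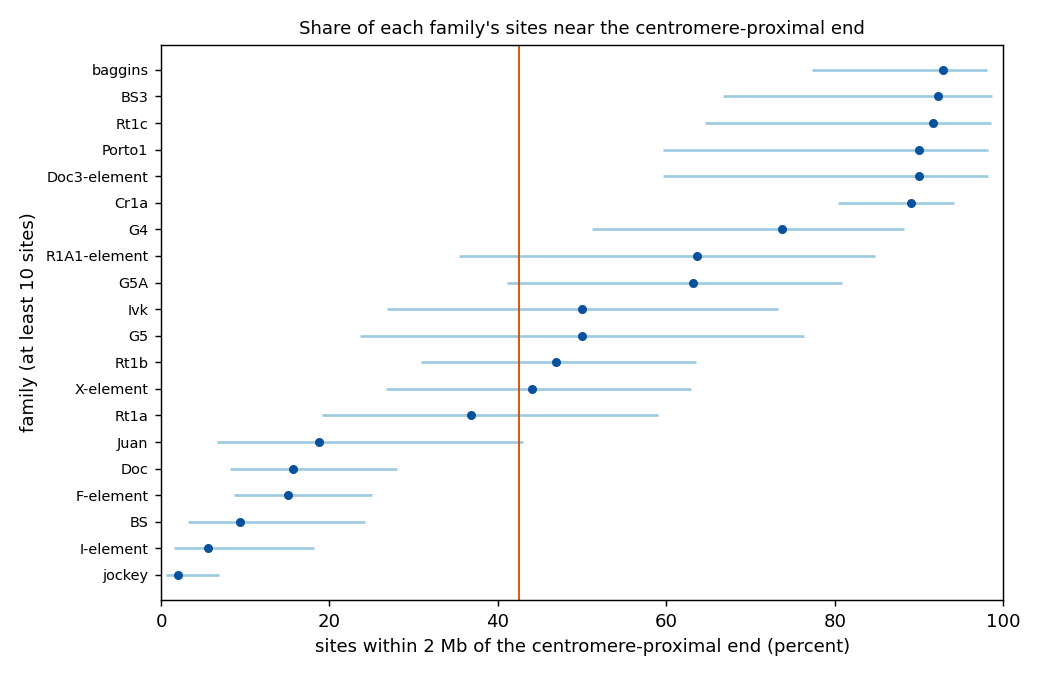
Percent of each family's sites that lay within 2 Mb of the centromere-proximal end of an arm (points) with 95% Wilson intervals (bars), for the 20 families with at least 10 sites; the orange line is the share over all 676 non-LTR sites, 42.5%. jockey is lowest with 1.96% and baggins highest with 92.9%.

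Frequency and place went together. Within 2 Mb the median frequency was 1 and 169 of 287 sites (58.9%, 53.1–64.4) were at 1, while beyond 2 Mb the median was 0.667 and 43 of 389 (11.1%, 8.31–14.6) were at 1. For LTR sites the medians were 0.865 and 0.605, and for TIR sites 0.8855 and 0.693. The median for non-LTR sites within 2 Mb was above that beyond it on 2L (1 and 0.687), 2R (1 and 0.62), 3L (1 and 0.667) and X (0.921 and 0.631), but not on 3R (0.667 and 0.719), where 20 sites lay within 2 Mb. Coverage moved with place as well, with a median total coverage of 3.968 within and 4.832 beyond 2 Mb. Among sites with a coverage of at least 6, the medians were 0.916 for the 35 sites within and 0.4925 for the 102 beyond. Of those sites, 13 of 35 (37.1%) and 4 of 102 (3.92%) were at frequency 1.

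Taken by family, the 9 families of at least 10 sites with most of their sites within 2 Mb (Cr1a, baggins, G4, G5A, BS3, Rt1c, R1A1-element, Doc3-element and Porto1) held 204 sites with a median frequency of 1, and 122 of them (59.8%, 53.0–66.3) were at 1. The 9 with most sites beyond 2 Mb (jockey, F-element, Doc, I-element, BS, Rt1b, X-element, Rt1a and Juan) held 386 sites with a median of 0.679, and 56 (14.5%, 11.3–18.4) were at 1. Medians of single families ran from 0.774 to 1 in the first group and from 0.568 to 0.954 in the second, so the groups overlapped. Ivk and G5 had equal numbers on both sides. The 9 Cr1a sites beyond 2 Mb also had a median of 1; they included X:60686, near the far end of X, at frequency 1 with support from both sides. The jockey sites, by contrast, had a median of 0.6335 both with and without the 2 sites within 2 Mb.

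**Figure D4:**
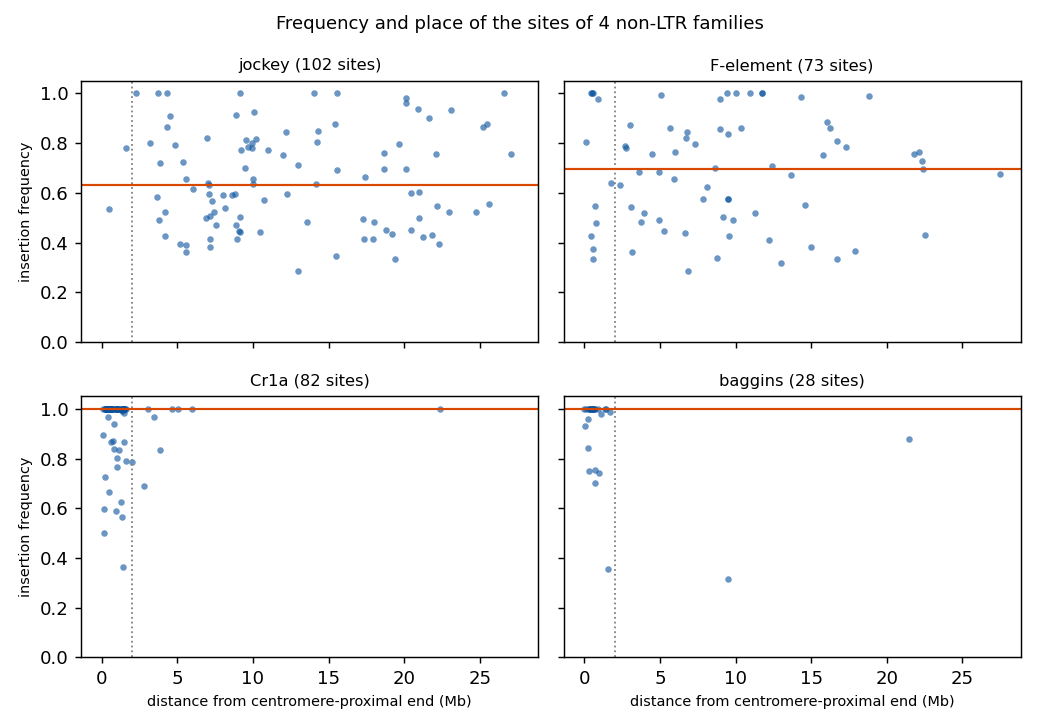
Insertion frequency of single sites (points) against their distance in Mb from the centromere-proximal end of the arm, for jockey, F-element, Cr1a and baggins; the orange line is the family's median frequency and the dotted line marks 2 Mb. The jockey sites are spread along the arms with a median of 0.6335, while 73 of 82 Cr1a sites lie left of the dotted line with a median of 1.

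Sites also lay close to other sites. Within 1 kb of a site of another family of any order were 65 non-LTR sites (9.62%, 7.62–12.1), beside 8.95% of LTR and 13.5% of TIR sites. The share was 18.3% for Cr1a (15 of 82) and 25% for baggins (7 of 28), and 1.96% for jockey (2 of 102). In 7 pairs, sites of the same family were at most 500 bases apart. The closest was a jockey pair at 2L:2855367 and 2L:2855381, 14 bases apart with frequencies of 0.983 and 0.962, one supported by reverse and the other by forward pairs.

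The genes at these sites were examined with the release 5 coordinates at hand, which covered 1962 genes on the 5 arms of the 13937 genes in the expression tables. The other genes were not placed here. The placed genes came from a part of the study's gene list ordered by identifier, and so were no random sample of genes. Of these, 91 genes lay within 3 kb of a non-LTR site, in 110 pairs of a gene and a site, and 82 had enough counts to be tested. In 64 pairs the site was inside the gene's span (51 genes), in 24 upstream and in 22 downstream. Whether a site inside a gene was in an exon or an intron was not analysed here. Sites inside a gene were on the strand opposite to the gene in 42 pairs and on the same strand in 22. Without Snap25, a SNARE gene of synaptic vesicle release in the proximal part of 3L that alone held 9 sites of 5 families, 8 of them at frequency 1, the opposite orientation made up 35 of 55 pairs (63.6%, 50.4–75.1). For jockey it was 11 of 17. The interval takes pairs as independent, but 6 genes, Snap25 among them, held 2 or more sites. The pros gene gave 2 of the opposite pairs, from jockey sites 401 bases apart that may not be separate insertions.

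In the HP1a-GKD-labelled libraries, 3 of the 82 genes rose and 0 fell against Ctrl at an adjusted p under 0.05, beside 0.877% up and 0.492% down among all 9346 genes tested (edgeR quasi-likelihood test, Benjamini-Hochberg adjustment over all genes). At an unadjusted p under 0.05 there were 14 genes in both directions, and DESeq2 called 3 up and 1 down. In the Piwi-GKD-labelled libraries, 35 rose (42.7%) and 19 fell (23.2%), beside 29.3% and 29.1% among all genes tested. In double-GKD, 36 rose (43.9%) and 17 fell (20.7%), beside 28.1% and 28.1%. The median log2 fold change of the 82 genes was 0.09, 0.26 and 0.34 in these 3 contrasts, beside a median of all genes tested within 0.01 of 0. Of the 1803 tested genes with coordinates, which alone could be placed near a site, 0.776% rose and 0.555% fell in the HP1a-GKD-labelled libraries, 29% and 34.9% in the Piwi-GKD-labelled pair and 28.8% and 31.1% in double-GKD. The contrasts share the Ctrl libraries. These counts are descriptions, since genes near a site were not tested as a set.

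Genes with a site inside and genes beside one gave unlike counts, a difference that was not tested. Of the 51 genes with a site inside, 28 rose and 7 fell in the Piwi-GKD-labelled libraries and 29 rose and 6 fell in double-GKD, whereas of the 31 tested genes with a site only beside them 7 rose and 12 fell, and 7 rose and 11 fell. Genes with a site inside were long: their median span was 47.8 kb, against 3.6 kb for all genes with coordinates. Among genes spanning at least 20 kb, a comparison added after these counts were seen, 26 of 41 with a non-LTR site inside rose in the Piwi-GKD-labelled libraries (63.4%) and 113 of 198 without one (57.1%). In double-GKD the shares were 63.4% and 54.0%. The classes within this range went different ways in the Piwi-GKD-labelled libraries: from 20 to 50 kb 10 of 18 genes with a site (55.6%) and 91 of 151 without (60.3%) rose, and at 50 kb and over 16 of 23 (69.6%) and 22 of 47 (46.8%). In double-GKD the shares were 55.6% and 56.3%, and then 69.6% and 46.8%. Gene length moved with the result, and its part was not tested. Within 3 kb of LTR sites 54 of 108 tested genes rose (50%) and 19 fell (17.6%) in the Piwi-GKD-labelled libraries. Within 3 kb of TIR sites 26 of 94 rose (27.7%) and 25 fell (26.6%). Beside all these counts stand the 1803 tested genes with coordinates, of which 29% rose and 34.9% fell in the Piwi-GKD-labelled libraries. In double-GKD 28.8% of them rose and 31.1% fell.

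By family, the 25 tested genes within 3 kb of a jockey site gave 12 that rose and 8 that fell in the Piwi-GKD-labelled libraries and 13 and 8 in double-GKD. For F-element it was 7 and 3 of 12 in both contrasts, for Doc 4 and 3 of 8 and then 2 and 2, for BS 3 and 0 of 9 and then 3 and 1, and for Juan 3 and 0 of 5 in both. Cr1a, with 82 sites, had 3 tested genes near it and no call in the 3 contrasts; at an unadjusted p under 0.05 there was 1 in HP1a-GKD, 0 in Piwi-GKD and 1 in double-GKD. Sites inside a gene on the same strand (19 genes) and on the opposite strand (34 genes) gave 10 and 18 that rose in the Piwi-GKD-labelled libraries, and 3 and 4 that fell. Among all genes tested 29.3% rose and 29.1% fell in these libraries, and 28.1% and 28.1% in double-GKD. Of the 198 genes of at least 20 kb without a non-LTR site inside, 57.1% rose in the Piwi-GKD-labelled libraries. No family or strand was tested as a set.

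The 3 genes that rose in the HP1a-GKD-labelled libraries were rut, CG3777 and Drip, and each was higher still in the other knockdowns. rut, the Ca2+/calmodulin-dependent adenylyl cyclase rutabaga, held an X-element site at X:14696483 (frequency 0.452, both sides). Its level was 4.42 and 3.34 TPM in Ctrl, 11.9 and 9.76 in the HP1a-GKD-labelled libraries, 21.0 and 13.7 in the Piwi-GKD-labelled pair and 18.2 and 14.4 in double-GKD. The groups did not overlap with Ctrl. The log2 fold changes were 1.35 (SE 0.17, adjusted p = 0.013), 1.75 (SE 0.17, adjusted p = 0.00011) and 1.73 (SE 0.17, adjusted p = 0.00012).

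CG3777 held a G3 site at X:186843 with frequency 1 and support from both sides. Its level was 1.14 and 0.847 TPM in Ctrl, 2.22 and 2.09 in the HP1a-GKD-labelled libraries, 7.58 and 6.30 in the Piwi-GKD-labelled pair and 5.87 and 5.43 in double-GKD. No knockdown library reached down to the Ctrl values, and the log2 fold changes were 1.08 (adjusted p = 0.023), 2.41 (2.3e-05) and 2.20 (3.6e-05). Drip, an aquaporin gene, lay 2055 bases downstream of an I-element site at 2R:7319205 (frequency 0.609, both sides). It was at 29.4 and 30.1 TPM in Ctrl, 47.2 and 49.8 in the HP1a-GKD-labelled libraries, 169 and 146 in the Piwi-GKD-labelled pair and 170 and 157 in double-GKD, with log2 fold changes of 0.65 (adjusted p = 0.021), 1.99 (1.1e-05) and 2.12 (1.3e-05). The calls in the HP1a-GKD-labelled libraries changed when a library was left out: 0 of the 82 genes were called up without Ctrl replicate 1 or without HP1a-GKD replicate 1, and 1 without Ctrl replicate 2 or without HP1a-GKD replicate 2. With only these 4 libraries in the model 1 was called. The adjusted p was 0.054 to 0.11 for rut where its call was lost, 0.066 to 0.16 for CG3777 and 0.071 to 0.18 for Drip. Their log2 changes were then 1.19 to 1.46, 0.96 to 1.21 and 0.54 to 0.67. The rut call held without HP1a-GKD replicate 2 and that of Drip without Ctrl replicate 2.

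**Figure D5:**
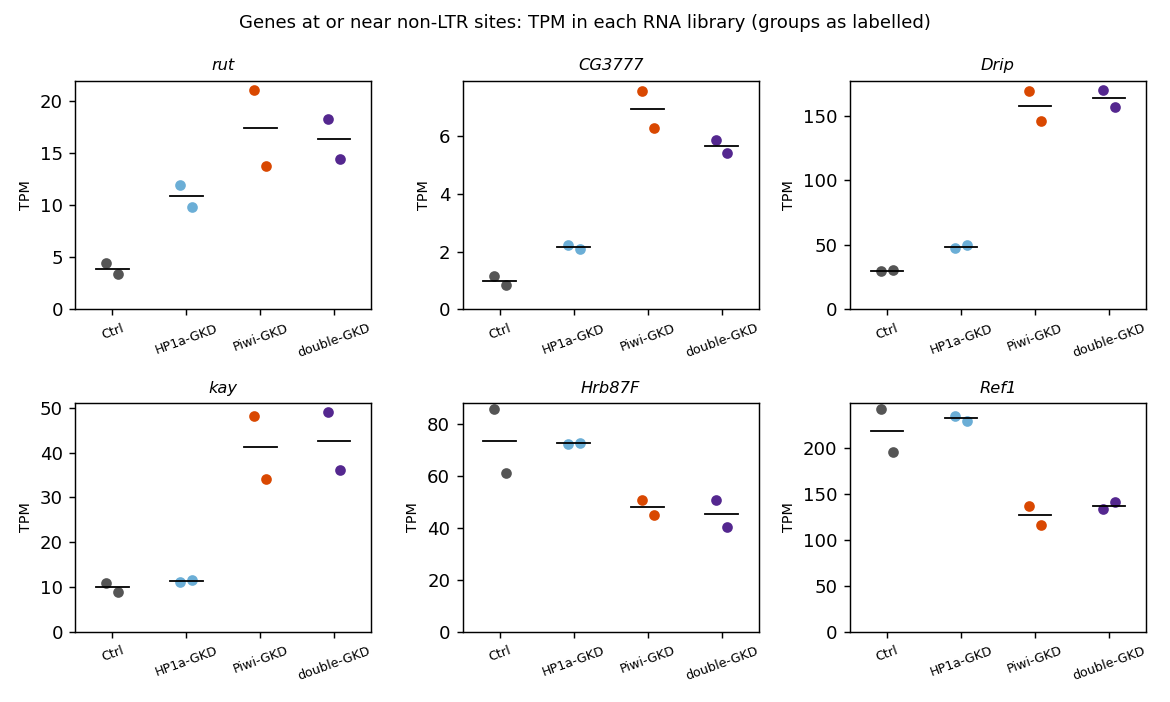
Level in TPM (vertical axes, each from 0) of 6 genes at or near a non-LTR site in each of the 8 RNA libraries (points), with the mean of the 2 libraries of a group (line); groups are named as labelled. rut, CG3777 and Drip lie above Ctrl in all knockdown libraries, kay above Ctrl mainly in the Piwi-GKD-labelled libraries and double-GKD, and Hrb87F and Ref1 below Ctrl there.

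Genes were next taken by how near a site of frequency at least 0.5 lay to their start, and the 25 nearest with the site inside gave 11 that rose and 3 that fell in the Piwi-GKD-labelled libraries, 12 and 4 in double-GKD, and 1 and 0 in the HP1a-GKD-labelled pair. Among all genes tested the shares were 29.3% and 29.1%, 28.1% and 28.1%, and 0.877% and 0.492%, in the same order. The 25 genes were not matched for length. Of genes spanning at least 20 kb with no non-LTR site inside, 57.1% rose and 16.2% fell in the Piwi-GKD-labelled libraries, and 54.0% and 13.6% in double-GKD. The nearest was Hrb87F, which encodes an hnRNP, with an F-element 806 bases into the gene at 3R:9485435 (frequency 0.838, both sides, opposite strand). It was at 85.7 and 61.0 TPM in Ctrl, 72.5 and 72.6 in the HP1a-GKD-labelled libraries, 50.8 and 45.1 in the Piwi-GKD-labelled pair, and 50.7 and 40.2 in double-GKD. The last 4 libraries lay below Ctrl, and the log2 fold changes were -0.07 (adjusted p = 0.88), -0.99 (0.00028) and -1.0 (0.00028).

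Both kay and Eip74EF held a jockey site and rose in the last 4 libraries. kay, the Drosophila Fos subunit of AP-1, held a jockey at 3R:25600329 (frequency 0.555, one side) and was at 10.8 and 8.93 TPM in Ctrl, 11.1 and 11.5 in the HP1a-GKD-labelled libraries, 48.3 and 34.2 in the Piwi-GKD-labelled pair and 49.0 and 36.1 in double-GKD. Its log2 fold change was 1.68 (SE 0.14, adjusted p = 6.6e-05) in the Piwi-GKD-labelled libraries and 1.80 (SE 0.14, adjusted p = 5.4e-05) in double-GKD. Eip74EF, an ecdysone-induced ETS factor with a jockey at 3L:17588545 (frequency 0.822), was at 2.64 and 1.73 TPM in Ctrl, 2.47 and 2.76 in the HP1a-GKD-labelled libraries, 9.53 and 6.01 in the Piwi-GKD-labelled pair and 8.17 and 6.59 in double-GKD, a log2 change of 1.46 in both of the latter contrasts (adjusted p = 0.00063 and 0.00068). pros, the homeodomain factor Prospero, held jockey sites at 3R:7170377 and 3R:7170778 on the opposite strand. It stayed under 0.4 TPM in every library, and its log2 change was 0.89 (adjusted p = 0.095) and 1.12 (adjusted p = 0.045), a call lost under DESeq2 (adjusted p = 0.13) and without any 1 of the 4 libraries (0.06 to 0.19).

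Of the other genes among these 25, CLIP-190, spen, caps, mtd, Moe and Sap47 were called up with log2 changes under 1. CLIP-190, a microtubule plus-end protein with a Doc at 2L:17400831 (frequency 0.748), was at 45.7 and 44.1 TPM in Ctrl, 43.7 and 44.9 in the HP1a-GKD-labelled libraries, 151 and 133 in the Piwi-GKD-labelled pair and 138 and 113 in double-GKD. On counts, its log2 change was 0.74 (adjusted p = 0.00018) and 0.58 (0.00066), less than the TPM values give. The scales parted at other genes too. RpS5a had a mean of 2984 TPM in Ctrl and 3973 in the Piwi-GKD-labelled libraries, with a log2 change of 0.01 on counts. B52 lay above both Ctrl libraries in TPM there but was called down on counts (-0.29, adjusted p = 0.016). The cause of the gap between the scales was not tested. spen, with an I-element at 2L:176465 (frequency 1, one side), changed by 0.76 and 0.81 on the log2 scale (adjusted p = 0.0029 and 0.0024), and caps, a leucine-rich repeat cell surface protein with an F-element at 3L:13233021, by 0.58 and 0.73 (0.00073 and 0.00025). mtd, with an Rt1b at 3R:1166712, changed by 0.56 and 0.49 (0.011 and 0.019), and Moe, the moesin linker of actin and membrane, with an F-element at X:8773366, by 0.30 and 0.34 (0.015 and 0.0095). Sap47, which held F-element sites at 3R:11772300 and 3R:11773198, both at frequency 1, changed by 0.37 and 0.38 (0.049 and 0.044). The calls of mtd, Moe and Sap47 were not stable: without Ctrl replicate 2 none of the 3 was called (adjusted p = 0.062, 0.073 and 0.23 in the Piwi-GKD-labelled libraries, and 0.1, 0.051 and 0.21 in double-GKD). The mtd calls were also lost without replicate 1 of either knockdown (0.067 and 0.11) and those of Moe without replicate 2 of either (0.072 and 0.065) or without Piwi-GKD replicate 1 (0.057). The Sap47 calls were lost without replicate 1 of either (0.31 and 0.20) and without double-GKD replicate 2 (0.067). With all replicates kept, the Moe call in the Piwi-GKD-labelled libraries was lost without the filter (0.055) and in the 4-library model (0.061), and that of Sap47 with RLE scaling (0.053), without the filter (0.065, and 0.062 in double-GKD) and in the 4-library model (0.096). The log2 change of Moe stayed between 0.26 and 0.31 where its calls were lost.

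Genes at low levels made up several of the remaining calls. tei held a jockey at 2R:9541694 (frequency 0.812, both sides) and a Doc at 2R:9562086 (frequency 0.776). It was at 0.390 and 0.309 TPM in Ctrl, 0.774 and 0.601 in the HP1a-GKD-labelled libraries, 1.91 and 1.06 in the Piwi-GKD-labelled pair and 1.89 and 1.86 in double-GKD, with log2 changes of 0.93 (adjusted p = 0.22), 1.66 (0.0014) and 2.10 (0.00049). comm, which controls Robo receptor sorting in axons and held a jockey at 3L:15717060, changed by 0.99 and 1.19 in the latter contrasts (0.029 and 0.014), from 17 and 22 estimated counts in Ctrl to 53 and 32 and then 45 and 51. Its call in the Piwi-GKD-labelled libraries was lost under DESeq2 (adjusted p = 0.11), without Ctrl replicate 1 (0.13), Ctrl replicate 2 (0.052) or Piwi-GKD replicate 1 (0.20), and that in double-GKD without Ctrl replicate 1 (0.075) or double-GKD replicate 1 (0.054). DopR2, a dopamine receptor gene with a jockey at 3R:25480067 (frequency 0.879, both sides, same strand), had 20.3 and 16 estimated counts in Ctrl, 39 and 37.9 in the HP1a-GKD-labelled libraries, 0 and 2 in the Piwi-GKD-labelled pair and 0 and 3 in double-GKD, and was called down in the last 2 contrasts (adjusted p = 0.0065 and 0.0094). Its fold change is not given here, because the knockdown counts are at or under 3 and it depends on the prior count.

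Of the rest of the 25 genes, Df31, a chromatin decondensation factor with a Doc at 2L:21627098 (frequency 0.523, both sides), fell by 0.54 and 0.47 on the log2 scale (adjusted p = 0.0016 and 0.0034), but its TPM values in the Piwi-GKD-labelled libraries (910 and 778) overlapped those of Ctrl (1019 and 848). Appl, the amyloid precursor protein-like gene with a BS at X:426464, fell by 0.87 in double-GKD (adjusted p = 0.014), a call lost under DESeq2 (0.061) and without Ctrl replicate 1 (0.077) or double-GKD replicate 1 (0.090). simj, Ald1, RpS5a, Sema2a, Ac3, su(w[a]), crp, Snap25 and Ptp99A had no call in any contrast, with adjusted p from 0.056 for Ac3 in double-GKD to 0.97 for RpS5a in the Piwi-GKD-labelled libraries.

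Among genes within 3 kb of a site of any frequency, Tbh, MtnB, Acbp2 and Lectin-galC1 had some of the highest fitted changes. Ctrl counts were low for Tbh, MtnB and Lectin-galC1. Acbp2 had 46 and 18 estimated counts in Ctrl and 148 and 88.4 in the Piwi-GKD-labelled libraries. Tbh, tyramine beta-hydroxylase of octopamine synthesis, held an I-element at X:7907712 (frequency 0.328) and lay 889 bases from a Juan at X:7921456 (frequency 0.835). It had 5.01 and 3.94 estimated counts in Ctrl, 2 and 5.01 in the HP1a-GKD-labelled libraries, 61.2 and 34.2 in the Piwi-GKD-labelled pair and 17.1 and 23.3 in double-GKD, and its log2 fold change was 3.23 (SE 0.47, adjusted p = 0.00085) and 2.01 (SE 0.49, adjusted p = 0.010) in the latter contrasts, the last being lost without Ctrl replicate 2 (adjusted p = 0.057). MtnB, a metallothionein gene 1141 bases from a Doc at 3R:16327819 (frequency 0.997), had 4.08 and 2 counts in Ctrl and 16 and 19 in the Piwi-GKD-labelled libraries (adjusted p = 0.013, lost under DESeq2 and without Ctrl replicate 2, both 0.078, or without Piwi-GKD replicate 2, 0.08), against 0 and 0 in the HP1a-GKD-labelled pair and 4 and 4 in double-GKD.

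Both Acbp2, an acyl-CoA-binding protein gene, and Lectin-galC1 had a BS upstream, 1742 bases away at 3L:7123221 and 425 bases away at 2L:19417022. Acbp2 was at 21.5 and 7.41 TPM in Ctrl, 35.5 and 18.3 in the HP1a-GKD-labelled libraries, 81.9 and 44.9 in the Piwi-GKD-labelled pair and 94.1 and 61.9 in double-GKD. The Ctrl libraries of Acbp2 were far apart, and its log2 change was 1.74 (adjusted p = 0.020, lost without Ctrl replicate 2, 0.089, or Piwi-GKD replicate 1, 0.098) and 2.13 (adjusted p = 0.0094). Lectin-galC1 was at 1.09 and 0.310 TPM in Ctrl, 5.42 and 3.51 in the HP1a-GKD-labelled libraries, 2.04 and 0.191 in the Piwi-GKD-labelled pair and 4.88 and 4.48 in double-GKD, and was called only in double-GKD (2.47, adjusted p = 0.033), a call lost without Ctrl replicate 2 or without either double-GKD replicate (adjusted p = 0.16, 0.083 and 0.084).

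Among genes that fell, Ref1, the ALY mRNA export adaptor, had a G4 666 bases upstream at 3R:2906792 (frequency 0.843, both sides). It was at 242 and 195 TPM in Ctrl, 235 and 229 in the HP1a-GKD-labelled libraries, 137 and 116 in the Piwi-GKD-labelled pair and 133 and 141 in double-GKD. It lay below both Ctrl libraries in the last 4, by -1.19 (adjusted p = 7.8e-05) and -0.99 (0.00018) on the log2 scale. rt, the protein O-mannosyltransferase gene rotated abdomen, lay 1764 bases from a jockey at 3L:11575458 (frequency 0.284) and changed by -0.96 and -1.30 (0.0018 and 0.00045), and oaf, 2032 bases from a jockey at 2L:2500878, by -0.77 and -1.07 (0.00032 and 7.5e-05).

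The study singled out 14 genes near TEs on these same samples, so that their direction is no independent evidence. By the deposited sites 5 of them had a non-LTR site within 10 kb, and elements of other orders near them are not given here. For CG9380 the study names another element and not the Ivk. The values of the 5 genes follow with no test, under the labels, whose single knockdowns the file naming and the target mRNAs exchange. CG9380, with an Ivk inside at 2R:21125388 (frequency 0.571), was at 2.84 and 3.36 TPM in Ctrl, 9.40 and 9.39 in the HP1a-GKD-labelled libraries, 12.7 and 12.4 in the Piwi-GKD-labelled pair and 12.5 and 12.3 in double-GKD. CG3348, 9356 bases from a jockey at 3R:23127267 (frequency 0.934, both sides), was at 2.01 and 2.27, 4.47 and 5.89, 31.5 and 32.4, and 30.1 and 25.5 TPM in the same order.

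CG9616, 1647 bases from a jockey at 3R:10072840 (frequency 0.925, both sides), had no count in either Ctrl library, 4 and 4 estimated counts in the HP1a-GKD-labelled libraries, 16 and 19 in the Piwi-GKD-labelled pair and 10 and 11 in double-GKD. CG43391 had a Juan 64 bases upstream at 3L:11574183 (frequency 0.490) and the jockey at 3L:11575458, and its counts were at most 6 in every library, too few to be tested. CG32814 held an Rt1c at X:919273 (frequency 1, both sides) and a baggins at X:920158 (frequency 0.878, both sides) and was at 4.41 and 6.28 TPM in Ctrl, 19.1 and 18.0 in the HP1a-GKD-labelled libraries, 14.2 and 13.2 in the Piwi-GKD-labelled pair, and 14.0 and 13.9 in double-GKD. It lies on the opposite strand within su(w[a]), which holds the same sites and had no call, and use of the strand in counting is not given in the sources used here, so reads of the pair may not be told apart.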

How the data were processed

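Insertion sites were called by the authors with PoPoolationTE2 on paired-end reads of 1 DNA library of double-GKD females, against TE consensus sequences and release 5 (dm3) of the genome. The deposited frequency is a fraction of read pairs supporting a site, and the deposited coverage column holds supporting and total coverage; the frequency equalled their ratio within 0.0005 at sites supported from one side and differed by up to 0.138 at the others. For RNA, the authors aligned reads with STAR and quantified genes with Salmon; versions and use of the strand are not given in the sources used here. The authors' estimated counts, as deposited, are not normalized and sum to 10773406 to 12802084 per library. The deposited TPM values are scaled per library by the authors. They carry no TMM scaling, so TPM levels and the log2 changes on counts are on different scales.

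Sites were counted in Python 3.11.15 (pandas 2.3.3) with Wilson 95% intervals. Estimated counts were rounded, filtered (filterByExpr), scaled by TMM and tested in edgeR 4.0.16 (R 4.3.3) with 1 model over the 8 libraries, and p-values were adjusted over 9346 genes; SEs are the fold change divided by the square root of F. The procedure was tested on simulated data. Replicates were 2 biological samples a group. Sites were named by family (at least 10 sites); genes were named where a site of frequency at least 0.5 lay inside (the 25 nearest to a start) or, within 3 kb, where changes were the 3 highest or lowest calls beyond both Ctrl libraries. Markers and gene lists came from textbook knowledge, clades likewise. Sites, lists and tests were chosen with earlier results of these data known. Alternatives were another scaling, DESeq2 1.42.0, no filter, 4-library models, a replicate block, leaving out libraries, exchanged labels, and other windows and site filters.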

Additional observations from a re-analysis of the deposited data

How the results depend on the processing

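Only 202 of the 676 non-LTR sites had support from both sides, and with these alone the median frequency was 0.838 instead of 0.7935; it was 0.667 without the sites within 2 Mb of a proximal end and 0.529 at a total coverage of at least 6, a filter added after seeing the data. The share near a proximal end was 27.8% in a 1 Mb and 52.4% in a 4 Mb window, and 25.5% at a coverage of at least 6. The non-LTR share of all sites was 27.7% to 28.3% under the site filters. Fewer or more genes enter by construction in the next counts, given as up and down. Within 10 kb, 153 genes were tested. They gave 56 and 38 (36.6% and 24.8%) in the Piwi-GKD-labelled libraries, and 56 and 35 (36.6% and 22.9%) in double-GKD. Of all tested genes with coordinates, 29% and 34.9% were called in the former and 28.8% and 31.1% in the latter. Sites supported from both sides gave 11 and 8, and 12 and 7. Sites of frequency at least 0.5 gave 24 and 12, and 24 and 11. The numbers tested are not given here for these sets, so their counts cannot be compared with those shares. Sites inside only gave 28 and 7, and 29 and 6, of 51 tested genes. Genes of at least 20 kb with a site inside, an alternative added after seeing the data, gave 26 and 4 of 41 in both contrasts. With 1 library left out, the median log2 change of the genes within 3 kb was -0.01 to 0.17 in the HP1a-GKD-labelled libraries. It was 0.19 to 0.38 in the Piwi-GKD-labelled pair and 0.26 to 0.39 in double-GKD. The median of all genes tested was then -0.01 to 0.03. Calls with 1 library left out assume that the lone library left in a group varies like the others. With 4 libraries in the model 1 gene was called up for HP1a-GKD, and DESeq2 gave 1 down. Over all 9346 genes, HP1a-GKD had 82 up and 46 down, against 141 and 100 under DESeq2 and 19 to 40 and 4 to 23 with 1 library left out.

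When both single knockdown labels are swapped, the 2 contrasts trade places, 35 up and 19 down for HP1a-GKD and 3 and 0 for Piwi-GKD, and 8 named genes with a call in 1 of them change sign, given here as swapped HP1a-GKD and Piwi-GKD log2 values (those of DopR2 and MtnB depend on the prior count): Df31 -0.54 and 0.07, comm 0.99 and -0.26, DopR2 -4.12 and 1.07, CLIP-190 0.74 and -0.07, Ref1 -1.19 and 0.04, Tbh 3.23 and -0.37, MtnB 2.38 and -4.71, rt -0.96 and 0.09. Another 4, Sema2a, su(w[a]), crp and Snap25, differ in sign between the contrasts with no call in either. No other alternative reversed a called value of a named gene. Of 49 calls among named genes, 40 held under every alternative with all replicates and the labels kept.

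Samples were not treated as paired by replicate number. The correlation of same-numbered deviations ran from -0.0434 to 0.232 over 6 pairs of groups, with a mean of 0.106. Whether same-numbered libraries share an effect was not tested. With a replicate block the counts were 3 up and 1 down for HP1a-GKD, 37 and 20 for Piwi-GKD and 38 and 19 for double-GKD. Over all genes tested the block gave more calls in each contrast. They were 119 up and 74 down for HP1a-GKD, 2942 and 2967 for Piwi-GKD and 2868 and 2897 for double-GKD.

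Depth limits the site results: a coverage near 4 resolves frequency coarsely and leaves out sites of low frequency, and 1 DNA library gives no spread between flies. The genes placed were 1962 and were no random sample of genes. With 2 libraries a group, p-values rest on a spread pooled over groups.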
